A study of Mus musculus with 2 samples.

Results

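Barcodes taken as conventional dendritic cells of mouse epididymal fat, called members here, made up 72 of the 2174 with at least 200 detected genes in a pair of single-cell libraries. Of these, 22 came from low fat diet (LFD) and 50 from high fat diet (HFD) feeding. They were chosen by measured counts of unique molecular identifiers (UMIs), each of which stands for 1 captured transcript. A member had at least 20 UMIs of the class II genes H2-Aa, H2-Ab1 and H2-Eb1 together, fewer than 10 of the macrophage genes C1qa, C1qb and C1qc, and at least 1 of Cd209a, Clec9a or Xcr1. It also had at most 1 UMI of the B cell genes Cd79a and Cd79b, fewer than 10 of the fibroblast gene Dcn and fewer than 3 of the endothelial genes Cdh5 and Cldn5. Members with Clec9a or Xcr1 and no Cd209a, the markers of type 1 conventional dendritic cells (cDC1), numbered 7 on LFD and 20 on HFD. Members with Cd209a and neither of the other genes numbered 12 and 28. Cd209a marks type 2 conventional dendritic cells (cDC2) but also dendritic cells derived from monocytes, so these are called Cd209a cells here. The remaining 3 and 2 members carried both kinds of marker and were kept apart.

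Conventional dendritic cells take up antigen in tissues, migrate to lymph nodes and present peptides to T cells on class II molecules. cDC1 depend on Irf8 and Batf3 and are known for cross-presentation, the loading of engulfed antigen onto class I molecules for CD8 T cells. cDC2 mainly prime CD4 T cells, and in adipose tissue both types lie among macrophages and monocytes, with which they share many genes.

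The data are 1 droplet library of the epididymal stromal vascular fraction from C57BL/6 mice on LFD and 1 from mice on HFD. Both diets lasted 24 weeks from 6 weeks of age. The mice were males, named C57BL/6J in the methods, and the number of animals behind each library is not stated. The protocol text of the labels names a low fat diet for both libraries, while the sample characteristics give LFD for the first and HFD for the second, and the characteristics were used.

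The LFD library held 1113 barcodes and 7356278 UMIs and the HFD library 1144 barcodes and 8412325 UMIs. At least 200 genes were detected in 1057 and 1117 of these barcodes, and no barcode sequence was shared between the libraries. Because there was 1 library per diet, no test between diets was possible and no p-value is given. A level is the number of UMIs of a gene in every 1000000 UMIs of a cell group (CPM), and LFD is given before HFD throughout. Intervals are 95% intervals, exact binomial (Clopper-Pearson) for shares, Poisson for levels and conditional binomial for ratios of levels. They cover counting error only, not differences between animals. Those of levels and ratios treat each UMI as independent, so they also leave out the spread between the cells of a group.

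The share of members was higher on HFD. They took 2.08% of LFD barcodes (1.31 to 3.13%) and 4.48% of HFD barcodes (3.34 to 5.86%). On the log2 scale the HFD share was 1.11 above the LFD share (Katz interval 0.39 to 1.82). Among barcodes with a UMI of the leukocyte gene Ptprc, the shares were 5.54% (19 of 343) and 10.3% (47 of 457), a log2 ratio of 0.89 (0.15 to 1.63). With the study's own limits of 200 to 2500 genes and less than 5% mitochondrial UMIs, members took 5.10% and 11.7%. When each cell was thinned to 1000 UMIs before the rule was applied, with lower UMI limits, the shares were 1.14% and 1.70%. They rest on 12 and 19 members. The log2 ratio was then 0.58, the lowest of the settings, and no interval is given for it.

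Both kinds of member were more frequent on HFD. Clec9a/Xcr1 cells took 0.662% of LFD barcodes (0.267 to 1.36%) and 1.79% of HFD barcodes (1.10 to 2.75%), a log2 ratio of 1.44 (0.20 to 2.67). Cd209a cells took 1.14% (0.588 to 1.98%) and 2.51% (1.67 to 3.603%), a log2 ratio of 1.14 (0.17 to 2.11). Among Ptprc barcodes the intervals of both log2 ratios took in 0, at 0.95 (-0.29 to 2.19) and 1.02 (-0.01 to 2.05). The balance between the kinds was not detectably different at this depth. Clec9a/Xcr1 cells were 31.8% of LFD members (13.9 to 54.9%) and 40% of HFD members (26.4 to 54.8%). Barcodes that met every limit but had none of the 3 marker genes, called the class II-high remainder, numbered 22 and 59. A higher share on HFD was not particular to members. The log2 ratio was 1.34 (0.65 to 2.04) for the remainder and 1.60 (0.15 to 3.04) for the monocyte-like barcodes described below.

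**Figure D1:**
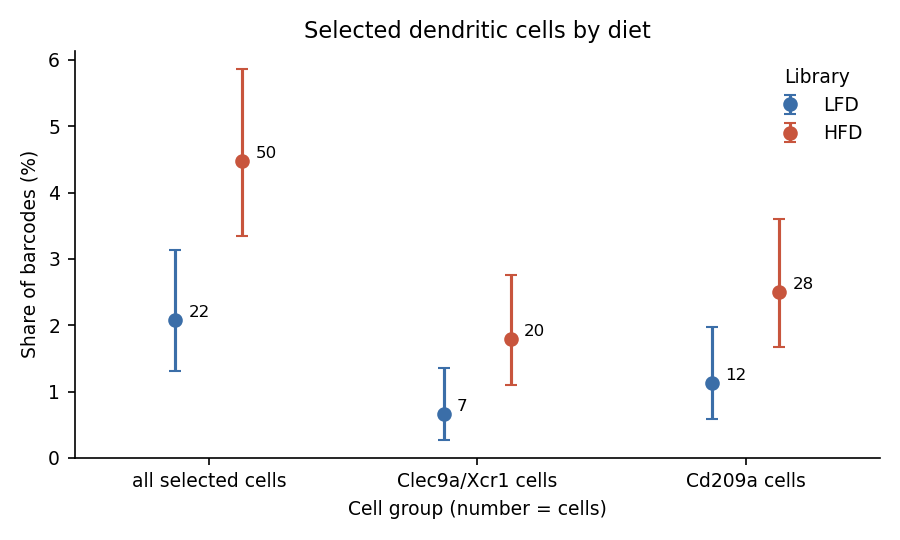
Share of barcodes with at least 200 genes, in percent, for members, Clec9a/Xcr1 cells and Cd209a cells in the LFD and HFD libraries, with exact binomial 95% intervals. Each share is higher in the HFD library.

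Few barcodes lay close to the class II and C1q limits, but more members lay at the limit of 1 marker UMI. The lowest class II sum of a member was 21 UMIs on LFD and 33 on HFD, and the class II sum was between 20 and 29 in 1 and 0 members. Just outside, 2 LFD barcodes and 1 HFD barcode met the rest of the rule with 10 to 19 class II UMIs. On the C1q limit, 1 LFD member and 1 HFD member had 5 to 9 UMIs, and no barcode that met the rest of the rule had 10 to 19. Exactly 1 Cd209a UMI placed 3 LFD and 7 HFD Cd209a cells, and exactly 1 Clec9a or Xcr1 UMI placed 1 and 3 Clec9a/Xcr1 cells. With 2 UMIs of a marker gene required, 18 LFD and 40 HFD members remained. Cd209a by itself did not single out dendritic cells, since 114 of 229 LFD and 70 of 316 HFD macrophage-like barcodes (C1q sum of at least 10 UMIs) also carried it. No macrophage-like barcode carried Clec9a or Xcr1. Doublets were kept. Scrublet, at an expected rate of 1%, marked 21 LFD and 26 HFD barcodes, among them 1 member, a Clec9a/Xcr1 cell on HFD.

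The genes of the rule had the following levels, given as description only. Clec9a (ENSMUSG00000046080, mm10 chromosome 6, 129408862 to 129424763), a receptor for dead cells, stood at 316 and 240.3 CPM in Clec9a/Xcr1 cells, with UMIs in 6 of 7 and 16 of 20 cells. Xcr1 (ENSMUSG00000060509, chromosome 9, 123852315 to 123862029), a chemokine receptor, stood at 438 and 201 CPM in 7 of 7 and 16 of 20 cells. Cd209a (ENSMUSG00000031494, chromosome 8, 3743397 to 3748984), a C-type lectin, stood at 832 and 656 CPM in Cd209a cells. The median class II sum was 239 and 199 UMIs in Clec9a/Xcr1 cells and 211.5 and 193.5 UMIs in Cd209a cells.

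Further cDC1 genes, outside the rule, were high in Clec9a/Xcr1 cells. Irf8 (ENSMUSG00000041515, chromosome 8, 120736358 to 120756694), the transcription factor on which cDC1 depend, was found in all 27 of these cells, at 1666 CPM on LFD (1348 to 2036) and 935 CPM on HFD (789 to 1101). In Cd209a cells Irf8 had 1 UMI on LFD and 12 on HFD, of which 11 lay in a single cell. Irf8 was seen in 4 of 63 and 2 of 21 T cell-like barcodes and in 9 of 375 and 5 of 292 fibroblast-like barcodes, which give the background. Median depth was 8612 and 7836 UMIs in Clec9a/Xcr1 cells, 8130 and 6764.5 in Cd209a cells, 2631 and 1781 in T cell-like and 8492 and 7905.5 in fibroblast-like barcodes. After thinning to 1000 UMIs, Irf8 remained in 100% and 55% of Clec9a/Xcr1 cells, against 5% of T cell-like barcodes in each library.

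Naaa (ENSMUSG00000029413, chromosome 5, 92257659 to 92278170), a lysosomal amidase, was highest in Clec9a/Xcr1 cells. There it had 2192 CPM on LFD (1824 to 2611) and 1480.5 CPM on HFD (1295 to 1686), with UMIs in 26 of 27 cells. Cd209a cells had 636 and 364 CPM, with Naaa UMIs in 7 of 12 and 20 of 28 cells. Macrophage-like barcodes stood at 174 and 110 CPM, fibroblast-like barcodes at 68.3 and 46.7 CPM and T cell-like barcodes at 10.5 and 0 CPM. Thinned, Naaa was seen in 85.7% and 80% of Clec9a/Xcr1 cells, 27.3% and 14.3% of Cd209a cells, 14.3% and 11.1% of macrophage-like and 7.57% and 5.86% of fibroblast-like barcodes, and 10.5% and 32.8% of the class II-high remainder. Naaa thus did not mark all members alike and was not limited to them.

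Napsa (ENSMUSG00000002204, chromosome 7, 44572380 to 44586862), an aspartic protease, was shared by both kinds of member. Its level was 438 and 455 CPM in Clec9a/Xcr1 cells and 528 and 496 CPM in Cd209a cells, with UMIs in 24 of 27 and 36 of 40 cells. Macrophage-like barcodes had 4.05 and 17.7 CPM, T cell-like barcodes 15.7 and 21.3 CPM and fibroblast-like barcodes 0.321 and 0 CPM. Napsa was not limited to members, since the 5 LFD and 16 HFD monocyte-like barcodes stood at 357 and 517 CPM. B cell-like barcodes had 439 and 483 CPM, in 17 of 24 and 6 of 11 cells, and the class II-high remainder 250.0 and 217 CPM.

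Flt3, the receptor for the growth factor that conventional dendritic cells need, had UMIs in 5 of 7 and 10 of 20 Clec9a/Xcr1 cells, at 175 CPM (84.1 to 322) and 117 CPM (69.3 to 185). It was sparser in Cd209a cells, at 19.6 CPM (2.37 to 70.7, from 2 UMIs) and 43.7 CPM (19.99 to 83.0), in 2 of 12 and 8 of 28 cells. No Flt3 UMI was seen in 545 macrophage-like, 84 T cell-like or 667 fibroblast-like barcodes, or in the 21 monocyte-like ones. The class II-high remainder had 6 Flt3 UMIs in 3 of 22 cells and 5 in 4 of 59 cells (27.8 and 12.5 CPM). Thinned, Flt3 was found in 14.3% and 10% of Clec9a/Xcr1 cells and 9.09% and 10.7% of Cd209a cells. Zbtb46, a transcription factor of conventional dendritic cells, had 6 UMIs in Clec9a/Xcr1 cells and 8 in Cd209a cells, too few for a comparison.

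The class II pathway is described here without a test, since the rule asked for class II UMIs in members and set no such minimum for macrophage-like barcodes. Cd74, the invariant chain that escorts class II molecules, stood at 18480 and 18169 CPM in Clec9a/Xcr1 cells and at 21985 and 19895 CPM in Cd209a cells, against 9617 and 7456 CPM in macrophage-like barcodes. Cst3, a secreted inhibitor of cysteine proteases, set the kinds apart, at 28999.7 and 27499.8 CPM in Clec9a/Xcr1 cells and 4599 and 4912 CPM in Cd209a cells.

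**Figure D2:**
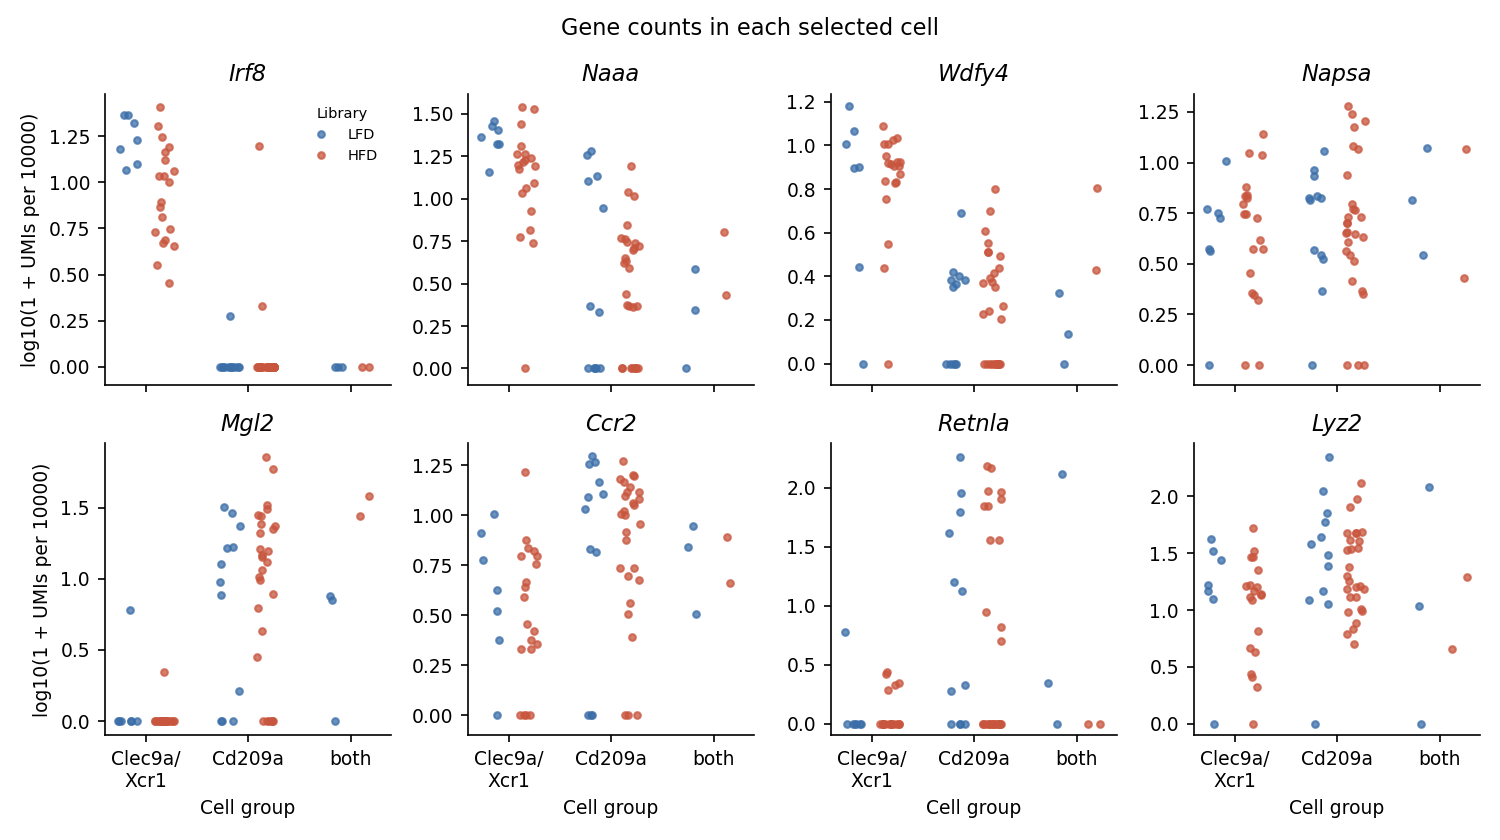
Expression of 8 genes in each member, as log10 of 1 plus UMIs per 10000, by kind of member and library. Irf8, Naaa and Wdfy4 lie higher in Clec9a/Xcr1 cells, Mgl2 and Ccr2 lie higher in Cd209a cells, Retnla and Lyz2 reach their highest values in some Cd209a cells, and Napsa is present in both.

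How the kinds of member differ was described by the ratio of Clec9a/Xcr1 cells to Cd209a cells, both libraries pooled. Of 1375 genes with at least 50 UMIs, 6.47% were at least 2-fold higher and 13.2% at least 2-fold lower in Clec9a/Xcr1 cells. Among 8 cDC1 genes with enough UMIs and outside the rule, 7 were at least 2-fold higher (Naaa, Irf8, Wdfy4, Ppt1, Cd24a, Rab7b and Id2), with a median log2 ratio of 2.27 against -0.11 over all genes. Of 10 cDC2 genes, 8 were at least 2-fold lower (Sirpa, Clec10a, Mgl2, Tnip3, Ccr2, Tmem176a, Tmem176b and S100a4). Their median log2 ratio was -3.71, or -3.65 with the 2 genes at 0 UMIs set to 3 UMIs. With 20 UMIs as the minimum, 12 cDC1 genes were at least 2-fold higher.

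On the cDC1 side, Irf8 was 26.8 times as high (15.4 to 51.1) with the libraries pooled, 170 times on LFD and 16.0 times on HFD. When a marker gene needed 2 UMIs, which left out the Cd209a cell with 11 of the Irf8 UMIs and put the 5 cells with both markers among the Cd209a cells, the log2 ratio of Irf8 was 7.79 in place of 4.70. Wdfy4, which cross-presentation requires, stood at 789 and 682 CPM against 108 and 112 CPM, a ratio of 6.44 (4.41 to 9.64). Ppt1, a lysosomal thioesterase, had a ratio of 11.3 (6.57 to 20.8), and Rab7b, a small GTPase of endosomes, one of 12.3 (5.61 to 31.9). Pkib, Sept3, Slc25a20 and Ncoa7 also stood between 6.57 and 9.24 times as high. Batf3 did not separate the kinds, with 193 and 214 CPM against 215 and 199 CPM (ratio 1.02, 0.677 to 1.52). Tlr3, a sensor of double-stranded RNA, had 16 and 7 UMIs in Clec9a/Xcr1 cells and 1 in Cd209a cells. The integrin gene Itgae had 1 and 4 UMIs against 0.

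The class I and cross-presentation list had 5 of 11 genes at least 2-fold higher in Clec9a/Xcr1 cells and none at least 2-fold lower, with a median log2 ratio of 0.50. They were the peptide transporters Tap1 (3.24 times) and Tap2 (3.41 times), the immunoproteasome subunits Psmb8 (2.60 times) and Psmb9 (4.32 times, 3.07 to 6.17), and Wdfy4. In the class II list 1 of 5 genes outside the rule was at least 2-fold different, Ctss, a protease that trims the invariant chain, at 0.360 times the level of Cd209a cells. Cd86, a costimulatory ligand for T cells, was 2.04 times as high in Clec9a/Xcr1 cells, from 12 and 34 UMIs against 9 and 24. It was 1 of 3 costimulation genes with enough UMIs. Tnfsf9, a ligand of the tumour necrosis factor family, was at least 2-fold lower, with 1 UMI against 77, and the median log2 ratio of the list was -0.23.

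On the side of the Cd209a cells, several genes had no UMI in any Clec9a/Xcr1 cell. With 3 UMIs set in place of 0 over the group, the difference was 36.8-fold for Capg, an actin-capping protein. It was 33.8-fold for the transcription factor Zeb2, 25.1-fold for the mannose receptor Mrc1 and 24.2-fold for Fcrls. For the lectin Clec10a it was 19.2-fold and for Plaur 17.1-fold. These folds are not interval limits. The upper limits of the ratios were 0.0338 for Capg, 0.0368 for Zeb2 and 0.0498 for Mrc1. Mgl2 (ENSMUSG00000040950, chromosome 11, 70130329 to 70137550), a galactose-binding lectin, stood at 1213 CPM (1009 to 1447) and 1482 CPM (1320.1 to 1658) in 9 of 12 and 22 of 28 Cd209a cells. Only 2 Mgl2 UMIs fell in Clec9a/Xcr1 cells, a ratio of 0.00681 (8.21e-04 to 0.0247). Fn1, fibronectin, had 310 UMIs against 1, a ratio of 0.00471 (1.19e-04 to 0.0264). With cells thinned for the rule, which also left fewer cells, the log2 ratio of Zeb2, computed with 0.5 UMIs added, was -6.38 in place of -7.67 and that of Mgl2 -7.72 in place of -6.88. S100a4, a calcium-binding protein, stood at 1272 and 1424 CPM against 17.5 and 64.9 CPM. Ccr2, the receptor that draws monocytes and cDC2 precursors into tissue, was shared, at 988 and 879 CPM against 368 and 312 CPM.

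Chemokine genes were mostly higher in Cd209a cells. Of 6 chemokine genes with enough UMIs, 5 were at least 2-fold lower in Clec9a/Xcr1 cells (Ccl2, Ccl6, Ccl9, Cxcl2 and Cxcl10) and 1 was higher, Ccl4, at 2.79 times. Most HFD Ccl2 UMIs of the Cd209a cells lay in a single cell. Ccl9 had 851 and 1249 CPM in Cd209a cells against 0 and 19.5 CPM, and Ccl6 had 773 and 1137 CPM against 193 and 117 CPM. Of 4 cytokine genes 1 was at least 2-fold higher in Clec9a/Xcr1 cells, Il12b, from UMIs in 2 cells, and 1 at least 2-fold lower, Il6. The median log2 ratio was -0.92, or -0.93 with Il6, at 0 UMIs, set to 3 UMIs. Il1b, an inflammatory cytokine, was present in both kinds, at 2319 and 2099 CPM in Cd209a cells (8 of 12 and 20 of 28 cells) and 736 and 1292 CPM in Clec9a/Xcr1 cells (5 of 7 and 16 of 20 cells). T cell-like barcodes had no Il1b UMI, and fibroblast-like barcodes had 1 in each library. Thinned, Il1b was seen in 45.5% and 57.1% of Cd209a cells.

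**Figure D3:**
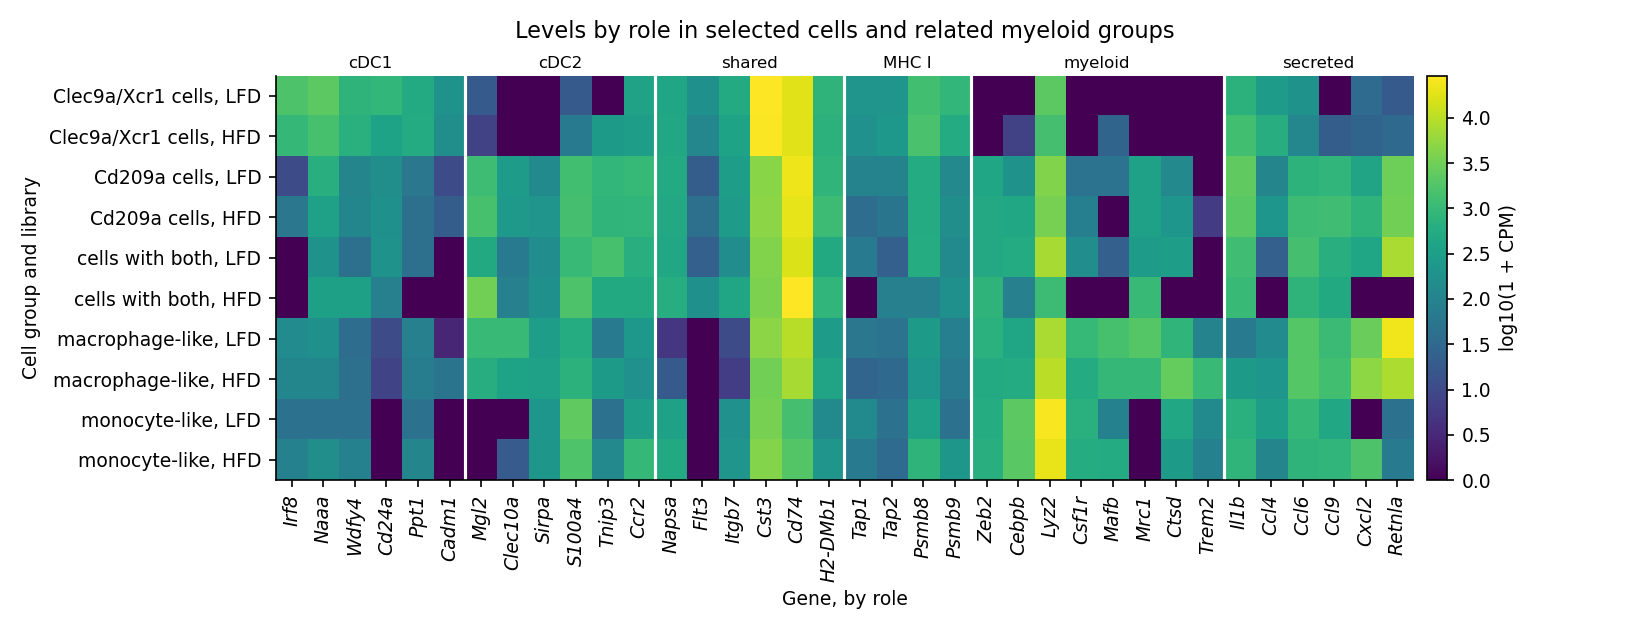
Levels of 36 genes grouped by role, as log10 of 1 plus CPM, in Clec9a/Xcr1 cells, Cd209a cells and 3 comparison groups of each library. Irf8 and Cst3 are highest in Clec9a/Xcr1 cells, and Flt3 is at 0 in macrophage-like and monocyte-like barcodes.

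Macrophage-like barcodes (229 and 316) served as the most numerous group that shares genes with dendritic cells. Since the rule used C1q genes, this contrast is a description. Of 7308 genes with at least 50 UMIs, 6.5% were at least 2-fold higher and 23.4% at least 2-fold lower in Cd209a cells than in macrophage-like barcodes. In the cDC2 list 6 of 13 genes were at least 2-fold higher (Napsa, Irf4, Tnip3, Ccr2, Tmem176a and S100a4) and 2 lower (Clec10a and Klf4), with a median log2 ratio of 0.86 against -0.09 over all genes. In the cDC1 list 5 of 9 genes were at least 2-fold higher (Naaa, Batf3, Wdfy4, Cd24a and Id2) and 3 lower, with a median log2 ratio of 1.16, so the genes higher in Cd209a cells were not limited to cDC2 genes. The lipid handling list had 12 of 15 genes at least 2-fold lower and none at least 2-fold higher, with a median log2 ratio of -2.90. This ratio pools the libraries, and the sum of that list was closer to macrophage-like barcodes on LFD (3062.5 against 5041 CPM) than on HFD (3576 against 18966 CPM). The pattern recognition list had 13 of 17 genes at least 2-fold lower, a median of -2.39 or -1.94 with 4 genes at 0 UMIs set to 3. The interferon response list had 8 of 12 lower, at -1.48 or -1.24 with 2 such genes. These ratios also pool the libraries. The HFD over LFD ratio of the interferon sum was 0.487 in macrophage-like barcodes and 1.26 (1.04 to 1.54) in Cd209a cells. For the pattern recognition sum it was 0.612 and 1.03 (0.844 to 1.26).

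With the libraries pooled, the genes highest in Cd209a cells relative to macrophage-like barcodes were the integrin chain Itgb7 (42.5 times, 27.8 to 66.6), Upb1, an enzyme of pyrimidine breakdown (40.8 times), the signalling protein Wnt11 (40.6 times) and the calcium channel Itpr1 (40.5 times). The order did not hold within LFD, where Wnt11 was 72.4 times and Itgb7 33.1 times as high. Napsa was 38.8 times as high (28.5 to 53.5), Ms4a4c 37.8 times, the leukotriene receptor Ltb4r1 23.9 times, Cd24a 21.1 times, the cyclin Ccnd2 14.4 times and Sept6 12.6 times. On LFD and HFD, Napsa was 130 and 28.0 times, Ms4a4c 14.5 and 49.0 times and Sept6 20.3 and 10.8 times as high. Il1b was 10.9 times (9.84 to 12.1), Il6 5.45 times and Ccr2 4.60 times as high. Mgl2 differed less, at 1.81 times, and Irf8 was lower, at 0.346 times.

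Several genes of resident macrophages had no UMI in the 40 Cd209a cells. With 3 UMIs set in place of 0, the chemokine Ccl8 was 135.5-fold lower, the lectin Cd209f 106.6-fold and Gas6 54.5-fold. The hyaluronan receptor Lyve1 was 51.7-fold, the complement gene C4b 40.9-fold and the scavenger receptor Stab1 30.8-fold lower. Cd209g was 30.1-fold and Ltc4s 27.6-fold lower. These folds are not interval limits. The upper limits of the ratios were 0.00908 for Ccl8 and 0.0115 for Cd209f. Trem2, a lipid receptor of macrophages, had 1 UMI. Csf1r, the receptor that macrophages need for survival, was 0.102 times as high, at 48.9 and 82.6 CPM. Other macrophage genes were present at lower levels. Retnla stood at 3053 and 3304 CPM in Cd209a cells against 23192 and 8345 CPM, and Mrc1, found in 30 of 40 Cd209a cells, at 357 CPM against 1254.0 CPM with both libraries pooled.

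In Clec9a/Xcr1 cells, 7.83% of 7243 genes were at least 2-fold higher and 33.7% at least 2-fold lower than in macrophage-like barcodes. Of 11 cDC1 genes outside the rule, 10 were at least 2-fold higher. In the list of genes shared by conventional dendritic cells, 3 of 7 were at least 2-fold higher (Cd74, Cst3 and Batf3). In that list 1 gene was at least 2-fold lower, the integrin gene Itgax. It had 0 UMIs in the 7 LFD and 5 UMIs in the 20 HFD Clec9a/Xcr1 cells. Gcnt2, a glycosyltransferase, had 55 UMIs in 18 of 27 Clec9a/Xcr1 cells and none in 545 macrophage-like barcodes. The lower limit of its ratio was 298-fold. The junctional molecule Amica1 was 169 times as high (92.5 to 338), Cd24a 65.6 times, Itgb7 61.4 times, the interferon-inducible Ifi205 52.3 times, Sept6 51.3 times, Napsa 34.5 times and Bri3bp 22.0 times. These ratios pool the libraries. On LFD and HFD, Amica1 was 109 and 524 times, Ifi205 37.1 and 105 times, Sept6 125 and 36.6 times and Napsa 108 and 25.7 times as high. Pf4, the lysosomal protease Ctsd, Mrc1, the clotting factor gene F13a1, the folate receptor Folr2 and Cd209f had no UMI. With 3 UMIs set in place of 0, they were from 73.0-fold lower for Cd209f to 165-fold lower for Pf4. The upper limits of these 2 ratios were 0.0168 and 0.00745. Retnla had 6 UMIs and the selenoprotein gene Sepp1 had 2. With the libraries pooled, the lipid handling list had 12 of 15 genes at least 2-fold lower and 1 higher, Spp1 (osteopontin).

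Monocyte-like barcodes, with low class II and UMIs of Csf1r and of Ly6c2, Chil3, Ace or Treml4, were few (5 and 16), which limits this comparison. Of 1094 genes, 10.8% were at least 2-fold higher and 9.51% at least 2-fold lower in Cd209a cells. In the cDC2 list 5 of 11 genes were at least 2-fold higher, with a median log2 ratio of 0.28, and in the cDC1 list 3 of 4 (Naaa, Cd24a and Id2), with a median of 1.61. Mgl2 had 429 UMIs against 0, at least 29.5-fold more at the lower limit of its interval. Mrc1 (7.47-fold), Fcrls (7.20-fold) and the proteoglycan Sdc4 (4.92-fold) also had only such lower limits because monocyte-like barcodes had no UMI. The same held for the growth factor receptor Fgfr1 (4.50-fold) and Smc4 (4.23-fold). For Smc4, 33.3% of the UMIs lay in 1 cell. Retnla was 50.6 times as high (21.6 to 156). The monocyte gene Plac8 was 0.00811 times as high (0.00322 to 0.0170), with 7 UMIs in the Cd209a cells, Pou2f2 0.0182 times, Apoe 0.0319 times and Ly6e 0.0376 times. These ratios pool the libraries. On LFD and HFD, Apoe was 0.00438 and 0.0572 times, Pou2f2 0 and 0.0321 times and Plac8 0 and 0.0122 times as high. Gngt2, Msrb1, Lst1, AI607873 and Tpd52 stood between 0.0418 and 0.118 times. Lyz2, lysozyme, was 0.168 times as high, while Napsa (1.08 times, 0.747 to 1.58) and Ccr2 (1.22 times, 0.917 to 1.64) were not detectably different. These counts did not separate cDC2 from monocyte-derived cells.

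The Cd209a cells varied among themselves along Retnla (ENSMUSG00000061100, chromosome 16, 48842551 to 48844461), a secreted protein of alternatively activated macrophages. The gene, the genes set beside it and the limit of 5 UMIs were chosen after the values of single cells had been seen, so the split describes a range and defines no cell type. Retnla UMIs numbered 0 in 4 LFD and 16 HFD cells, 1 to 4 in 3 and 1, 5 to 9 in 0 and 2, and 10 or more in 5 and 9. The most in any cell was 138 UMIs on LFD and 114 on HFD. T cell-like barcodes had at most 2 Retnla UMIs per cell and fibroblast-like barcodes at most 11, which is above the limit of 5. The part of free RNA in these counts was not tested.

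Cells with at least 5 Retnla UMIs (5 and 11) had higher levels of several genes found in monocytes or macrophages than those with fewer (7 and 17). Lyz2 stood at 7460 CPM against 1451 CPM on LFD, a ratio of 5.14 (4.02 to 6.64), and at 5154 against 2062 CPM on HFD, a ratio of 2.499 (2.13 to 2.94). Fn1 stood at 1955 CPM against no UMI on LFD and at 1968.5 against 181 CPM on HFD, a ratio of 10.8 (6.77 to 18.4). Fcrls was 8.99 times (2.71 to 46.8) and 6.50 times as high (3.42 to 13.6), and Ear2, an eosinophil-type ribonuclease, 3.85 and 3.06 times. In the LFD cells with at least 5 Retnla UMIs, 15 of the 23 Ear2 UMIs lay in 1 cell. Ccr2 was 2.53 times (1.64 to 3.97) and 1.40 times as high (1.03 to 1.90). Mrc1 was higher on HFD, at 3.17 times (1.83 to 5.73), but not detectably different on LFD, at 1.38 times (0.686 to 2.80). Csf1r was not detectably different in either library, at 1.76 times (0.201 to 21.0) and 1.17 times (0.399 to 3.47).

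Of the dendritic genes outside the member rule, some were higher in the cells with fewer Retnla UMIs and others were not. Clec10a was 0.130 times (0.0253 to 0.423) and 0.476 times as high (0.251 to 0.867) in the cells with 5 or more, and Mgl2 0.691 (0.469 to 1.01) and 0.528 times. Napsa stood at 0.690 (0.376 to 1.23) and 0.518 times (0.333 to 0.793), and Wdfy4 was not detectably different, at 1.41 (0.358 to 5.83) and 0.553 times (0.203 to 1.39). All 11 Flt3 UMIs of the Cd209a cells, 2 on LFD and 9 on HFD, lay in cells with fewer than 5 Retnla UMIs. Of the 9 on HFD, 2 lay in the cell with 11 Irf8 UMIs. In the other direction, Naaa was 14.1 times (5.70 to 44.9) and 1.47 times as high (0.908 to 2.41) in the cells with 5 or more, Batf3 2.05 times (0.803 to 5.64) and 2.23 times (1.12 to 4.69), and Tnip3 1.28 times (0.832 to 1.97) and 1.69 times (1.23 to 2.34). Itgax stood at 0.586 (0.129 to 2.19) and 2.76 times (1.03 to 8.62). Cd209a (0.361 and 0.391 times) and the class II sum (0.445 and 0.619 times) were used by the rule and are given as description only. Klrd1, a lectin receptor of natural killer cells, had 0 against 9 UMIs on LFD, 8 of them in 1 cell, and 4 against 22 on HFD. Il1b went opposite ways, with 0.196 times the level in the LFD cells with Retnla and 1.61 times in those on HFD. With 1 Retnla UMI as the limit, the LFD log2 ratios of Clec10a and Ear2 were -0.03 and 0.65 in place of -2.75 and 1.88, and with 10 UMIs the HFD log2 ratio of Fn1 was 2.04 in place of 3.41.

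**Figure D4:**
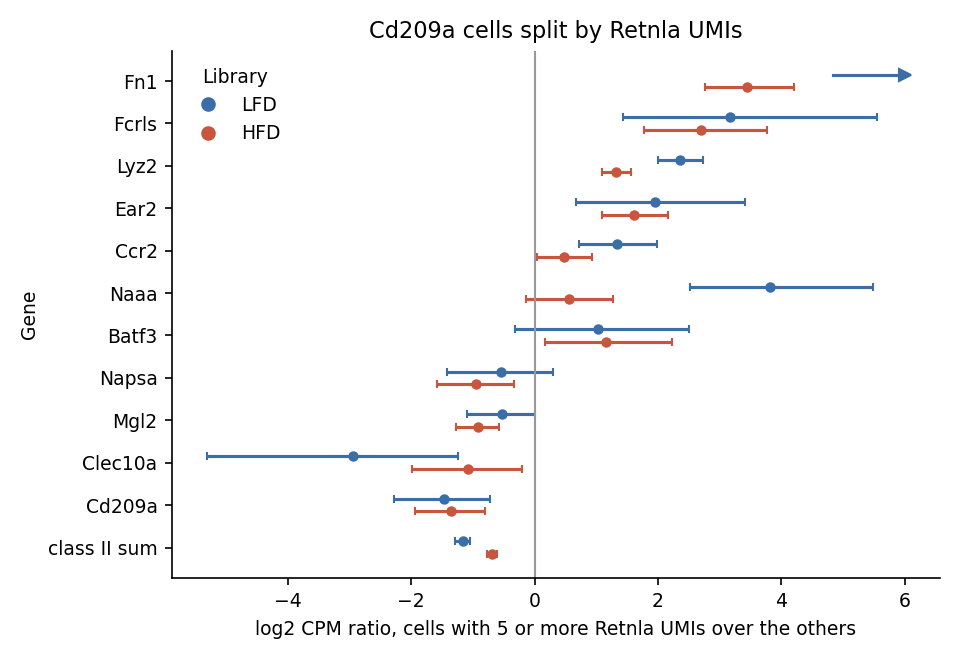
Log2 ratio of CPM between Cd209a cells with at least 5 Retnla UMIs and those with fewer, for each library, with 95% intervals. Lyz2, Fn1, Fcrls and Ear2 lie above 0 in both libraries and Clec10a lies below 0. Cd209a and the class II sum, used by the member rule, are shown as description, and the arrow marks Fn1 on LFD, where the other cells had no UMI.

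Between diets, most tested genes of Cd209a cells differed by less than 2-fold. Of 849 genes with at least 50 UMIs, 3.42% were at least 2-fold higher and 2.36% at least 2-fold lower on HFD. Among the genes named as higher, Calr, calreticulin, stood at 362 and 909 CPM (ratio 2.51, 1.76 to 3.67), Pdia6, a disulfide isomerase, at 186 and 476 CPM (2.56, 1.56 to 4.43) and Sdf2l1 at 78.3 and 262 CPM (3.35, 1.58 to 8.16). In Clec9a/Xcr1 cells Calr stood at 772 and 864 CPM (ratio 1.12, 0.791 to 1.61). Whether the ratios of the 2 kinds of member differ was not tested. With cells thinned for the rule, which left 8 and 13 Cd209a cells, the log2 ratio of Calr was 0.43 in place of 1.31.

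Other genes named as higher on HFD in Cd209a cells were the transport protein Tmed2 (3.09 times), the signalling regulator Rgs1 (3.05 times), Ear2 (2.68 times, 1.81 to 4.10), cytochrome c (Cycs, 2.61 times), the transcription factor Cebpb (2.56 times), the galectin Lgals1 (2.52 times) and the splicing factor Srsf6 (2.48 times). Cebpb was not stable, at a log2 ratio of 0.28 in place of 1.33 when marker genes needed 2 UMIs, and Rgs1 stood at 0.76 in place of 1.53 without cycling and mature members. The chemokine list had 2 of 5 genes at least 2-fold higher, Ccl2 and Ccl4. For Ccl2, 78% of the HFD UMIs lay in 1 cell. None of 10 cDC2 genes was 2-fold different, with Mgl2 at a ratio of 1.22 (0.988 to 1.52) and Napsa at 0.938 (0.668 to 1.33), and Retnla stood at 1.08. Naaa was lower, at 0.573 times (0.406 to 0.811), but 22 and 20 of its 65 LFD UMIs each lay in a single cell. The median was 1 Naaa UMI per cell on LFD and 1.5 on HFD.

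Immediate early genes, which respond quickly to stimulation and to tissue handling, were lower on HFD in Cd209a cells. Of 14 such genes 5 were at least 2-fold lower (Fos, Fosb, Jun, Egr1 and Atf3), none had a ratio above 1, and the median log2 ratio was -0.74 against 0.04 over all genes. Fos stood at 1898 and 646 CPM (ratio 0.340, 0.271 to 0.427) and Atf3 at 646 and 262 CPM (0.406, 0.278 to 0.591). The 16 genes of the list together took 13101 and 7739 CPM, a ratio of 0.591 (0.549 to 0.636). The count was 3 with the study's cell limits and without the 5% of members with the most UMIs, 2 with 2 marker UMIs required or with the cells of both markers assigned, and 0 with cells thinned for the rule. In that last setting Jun and Fosb were higher on HFD, with log2 ratios of 0.43 and 0.22.

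The same list was lower on HFD in most other groups of the libraries. The ratio was 0.784 in Clec9a/Xcr1 cells (0.703 to 0.876), 0.791 in the class II-high remainder, 0.582 in macrophage-like, 0.757 in monocyte-like, 0.783 in T cell-like and 0.892 in fibroblast-like barcodes. It was 1.04 (0.858 to 1.25) in the 5 members with both kinds of marker. What part this library-wide difference had in the levels of Cd209a cells was not tested. Further genes named as lower on HFD were the metallothionein Mt1 (0.350 times), Ppp1r15a (0.409 times), the pore-forming protein gene Mpeg1 (0.410 times), Chd4, Nfkbid and Wnk1 (0.429 to 0.460 times).

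In Clec9a/Xcr1 cells the diet ratios rest on 7 LFD and 20 HFD cells. Of 502 genes, 3.39% were at least 2-fold higher and 2.39% at least 2-fold lower on HFD. Rel, a subunit of NF-kB, stood at 87.7 CPM in 3 of 7 LFD cells and 493.5 CPM in 18 of 20 HFD cells, a ratio of 5.63 (2.31 to 17.8). In Cd209a cells Rel stood at 783 and 787 CPM. Ifitm2, an interferon-induced membrane protein, was 3.598 times (1.66 to 9.29), Ppp1ca 3.09 times, Selk 2.90 times, the iron regulator Hfe 2.72 times and Ifi30, a thiol reductase of the class II pathway, 2.54 times as high (1.41 to 4.95). Though Ifitm2 was higher, the interferon response list was lower in sum on HFD, at 2525 and 422 CPM (ratio 0.167, 0.123 to 0.226). None of its genes had enough UMIs for a ratio of its own, and the LFD UMIs of Isg15, Ifit2, Ifit3, Irf7 and Rsad2 each lay in 1 cell. Syngr2 and Baz1a were each 2.22 times and Lgals3 2.04 times as high. Baz1a stood at a log2 ratio of 0.29 in place of 1.08 with CPM averaged over single cells. For Hmgb1 (2.35 times), 42.1% of the HFD UMIs lay in 1 cycling cell, and without cycling and mature members its log2 ratio was 0.25 in place of 1.17.

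Most cDC1 genes had lower levels on HFD in Clec9a/Xcr1 cells. Of 7 such genes 1 had a ratio above 1 and 1 was at least 2-fold lower, Cd24a, at 894 and 389.6 CPM (ratio 0.436, 0.295 to 0.646), and the median log2 ratio of the list was -0.59 against 0.00 over all genes. Of the LFD Cd24a UMIs 41.2% lay in 1 cell, and without it, an alternative chosen after this was seen, the ratio was 0.582 (0.370 to 0.935), which is less than 2-fold. Irf8 had a ratio of 0.561 (0.430 to 0.735), Naaa one of 0.676 and the differentiation factor Id2 one of 0.560. The sum of the list had a ratio of 0.658 (0.591 to 0.734), and 0.701 (0.572 to 0.859) in Cd209a cells. Among LFD Cd209a cells, 1 cell held 20 of the 65 Naaa and 9 of the 16 Cd24a UMIs, and another held 22 Naaa UMIs. Cd83, a marker of activated dendritic cells, had a ratio of 0.441 in Clec9a/Xcr1 cells. The lower genes of this paragraph fell outside the naming rule, which needs UMIs in at least 10 cells of the higher side, more than the 7 LFD cells, and were chosen after their values were seen. Of the immediate early list 1 of 9 genes was at least 2-fold lower, Atf3.

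Lipid handling genes had lower sums in Clec9a/Xcr1 and Cd209a cells than in macrophage-like barcodes, with the larger gap on HFD. Together their 15 genes took 3062.5 and 3576 CPM in Cd209a cells and 2069 and 2922 CPM in Clec9a/Xcr1 cells, against 5041 and 18966 CPM in macrophage-like barcodes. The diet ratio was 1.41 (1.15 to 1.74) in Clec9a/Xcr1 cells. There Lgals3, 1 gene of the list, stood at 649 and 1325 CPM. The median log2 ratio of the 3 genes with enough UMIs was 0.15. In Cd209a cells the diet ratio of the sum was 1.17, and its direction turned under 6 of the alternative settings. The ratio was above 1 in the class II-high remainder (1.84), macrophage-like (3.76), T cell-like (1.69) and fibroblast-like barcodes (1.35), not detectably different in monocyte-like ones (1.15, 0.928 to 1.44) and 0.602 in cells with both markers. What part this had in the levels of members was not tested. Of the HFD Lpl UMIs of the Cd209a cells, 53.7% lay in 1 cell.

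Some members, numbered from the deepest in each library, stood apart from the rest. LFD cell 7, a Cd209a cell with 1 Cd209a UMI, had 36 UMIs of Ccr7, the receptor that guides dendritic cells to lymph nodes, along with 8 of Fscn1 and 7 of the chemokine Ccl22. HFD cell 17, with 1 Xcr1 UMI, had 16 Ccr7, 15 Ccl22 and 22 Il12b UMIs. No other member had more than 9 Ccr7 UMIs. Il12b, a cytokine subunit that drives T helper 1 responses, had 32 UMIs in LFD cell 5, a Clec9a/Xcr1 cell. HFD cell 21, a Cd209a cell with 1 Cd209a UMI, had 11 Irf8, 11 Naaa, 2 Flt3 and 3 Zbtb46 UMIs. It had no Mgl2 or Clec10a UMI. Cycling members were found in both kinds. At least 30 UMIs of cell cycle genes were seen in 1 of 12 and 4 of 28 Cd209a cells and in 1 of 7 and 1 of 20 Clec9a/Xcr1 cells, against 5 of 229 and 19 of 316 macrophage-like barcodes. HFD cell 5, a Clec9a/Xcr1 cell, had 23 UMIs of the proliferation gene Mki67, LFD cell 2 had 23 and HFD cell 2 had 12. The other cells counted lay nearer the limit, with 30 to 49 cell cycle UMIs and 1 to 4 Mki67 UMIs.

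The 5 members with both kinds of marker each had 1 Clec9a UMI, no Xcr1 UMI and no Irf8 UMI, beside 3 to 23 Cd209a UMIs. LFD cell 1 among them was the deepest member, at 27840 UMIs, with 361 Retnla and 118 Fn1 UMIs. LFD cell 21, a Clec9a/Xcr1 cell, had 62.3% mitochondrial UMIs among 1998 UMIs. LFD cell 22, a Cd209a cell, had 813 UMIs, 11.8% of them mitochondrial, and the highest C1q sum of any member, 9 UMIs.

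Markers of other cell types were mostly at 0 in Clec9a/Xcr1 and Cd209a cells. The rule itself limited Cd79a, Cd79b, Dcn, Cdh5 and Cldn5, so the counts of these genes are description only. All 4 mesothelial, all 4 neutrophil and all 4 mast cell genes had no UMI in either kind, and B cell genes had 1. Of 5 T cell genes, 3 had UMIs in LFD Cd209a cells (7 in all, with Cd4 the most abundant at 3), none had any in HFD Cd209a cells, and Clec9a/Xcr1 cells had 4 Cd8a UMIs on HFD and none on LFD. Of the natural killer genes, Klrd1 had 9 and 26 UMIs in Cd209a cells, Nkg7 had 2 on LFD and none on HFD, and Ncr1, Klrb1c and Gzma had none. Of 8 genes of plasmacytoid dendritic cells, Tcf4 had 6 and 4 UMIs in Clec9a/Xcr1 cells and 8 and 18 in Cd209a cells, and the defining marker Siglech was at 0. Of 6 fibroblast genes 3 had UMIs in Cd209a cells (196 and 311 CPM in sum), with Gsn the most abundant and Col1a1, Pdgfra and Lum at 0, and 1 and 2 had UMIs in Clec9a/Xcr1 cells (140.3 and 149 CPM). Endothelial genes had 1 to 4 UMIs and adipocyte genes 0 to 2 UMIs per kind and library.

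Monocyte and macrophage markers were present at lower sums than in the groups named for them. These sums partly restate how the groups were chosen. The rule limited C1qa, C1qb and C1qc in members, and macrophage-like barcodes were chosen by them. Monocyte-like barcodes were chosen by Csf1r, Ly6c2, Chil3, Ace and Treml4. Of 10 monocyte genes, 5 and 8 had UMIs in Cd209a cells (5802 and 5315 CPM), led by Lyz2 with 431 and 737 UMIs, and Chil3 was at 0 in both libraries. In Clec9a/Xcr1 cells 4 and 5 of them had UMIs (3033 and 2000 CPM), again led by Lyz2, with Ly6c2, Chil3 and Csf1r at 0. Of 13 macrophage genes, 10 and 10 had UMIs in Cd209a cells (822 and 933 CPM), led by Mrc1, with Mertk at 0. In Clec9a/Xcr1 cells 2 and 4 had UMIs (210.4 and 214 CPM), led by Cd68.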

How the data were processed

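The starting point was the UMI counts per gene and barcode that the authors deposited for each library, made with Cell Ranger 3.0.2 per the file headers on mm10 and not normalized. Barcodes with at least 200 genes were kept, and groups were formed from raw UMIs. UMIs were summed over the cells of a group and divided by all their UMIs. Ratios were computed for genes with at least 50 UMIs in both sides together. Genes were named when they were among the 10 highest or 10 lowest ratios, seen in at least 10 cells of the higher side and at least 2-fold different with an interval that left out 1, and in the same direction in each library for comparisons of groups. Mitochondrial, ribosomal, haemoglobin, immunoglobulin, Y-linked, Xist and Gm/Rik genes were left out. Genes of the lists were named by role. The members and lists were chosen with earlier results of these data known. Of the listed genes 7 are not in the tables under that symbol (Clec6a, Clec7a, Ighm, Igkc, Itgam, Trbc1 and Trbc2). Positions came from GENCODE for 359 of 359 genes. The work used scanpy 1.11.5, scipy 1.17.1, pandas 2.3.3, numpy 2.4.6 and matplotlib 3.10.9 in Python 3.11.15.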

Additional observations from a re-analysis of the deposited data

Results flagged for a closer look

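In 462 genes with at least 50 UMIs in both kinds of member, 4 had HFD over LFD ratios whose intervals lay on opposite sides of 1 in Cd209a cells and Clec9a/Xcr1 cells. Anxa2, a membrane-binding annexin, was 1.646 times as high on HFD in Cd209a cells (1.21 to 2.28) and 0.6812 times in Clec9a/Xcr1 cells (0.487 to 0.961). Ftl1, the ferritin light chain, had ratios of 0.8356 (0.743 to 0.941) and 1.376 (1.14 to 1.67). Psap, a precursor of lysosomal activators, had 1.237 (1.07 to 1.43) and 0.7979 (0.679 to 0.941). Tmsb10, an actin-binding peptide, had 1.306 (1.03 to 1.66) and 0.8148 (0.674 to 0.989). With 1 library per diet the difference between the kinds of member was not tested, and none of the ratios reached 2-fold.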

How the results depend on the processing

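Results were recomputed under 17 alternative settings, of which leaving out members with at least 10% mitochondrial UMIs and leaving out cycling and mature members were chosen after seeing the data. So were the list sums as results and, apart from the 17, the other Retnla limits and the Cd24a ratio without 1 cell. Of 1650 values for 110 named ratios, computed with 0.5 UMIs added, 1587 lay inside the interval of the reported value, 61 outside and 2 turned direction. Of 44 ratios of the Retnla split, 35 lay inside. The log2 ratio of the member shares stayed between 0.58 and 1.24. Member shares on LFD and HFD were 5.102 and 11.65% with the study's cell limits, 1.135 and 1.701% with cells thinned for the rule, and 5.539 and 10.28% of Ptprc barcodes, which is another denominator. With a minimum of 20 UMIs, which tests more genes, 12 cDC1 genes were higher in Clec9a/Xcr1 cells, 7.329 and 5.314% of genes were 2-fold higher and lower on HFD in Cd209a cells, and 9.992 and 5.785% in Clec9a/Xcr1 cells. Genes 2-fold higher on HFD in Cd209a cells were 5.155% with the study's limits, 1.423% with 2 marker UMIs, 1.693% with cells of both markers assigned (lower genes 1.494%) and 5.418% with CPM averaged over cells, which gave 5.578% in Clec9a/Xcr1 cells. With cells thinned for the rule, 31.26% of genes were higher in Cd209a than in monocyte-like cells and 5.314% lower on HFD in Clec9a/Xcr1 cells. Immediate early genes 2-fold lower in Cd209a cells (5 as reported) numbered 3 with the study's limits and without the 5% deepest members, 2 with 2 marker UMIs and with both markers assigned, and 0 when thinned. Their summed log2 ratio (-0.7594) was -0.3916 when thinned, -0.8756 averaged over cells and -0.9687 without cycling and mature members. That of lipid handling genes in Cd209a cells (0.2235) was -0.1753 with the study's limits, -0.2504 with 2 marker UMIs, -0.3765 thinned, -0.05103 with both markers assigned, -0.1374 averaged over cells and -0.03601 without the deepest members. Thinned, the log2 ratios of Jun and Fosb turned to 0.4289 and 0.2191. Except where stated, the cause was not tested. The 2-fold result was first computed as numbers of genes and then, after that outcome was seen, as percent of genes tested. Of 192 values, 26 lay more than 1.5 times from the reported one as numbers and 12 as percent. No barcode was shared by the libraries, so leaving shared ones out altered nothing.

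With 1 library per diet, diet cannot be told apart from animal, dissociation and library. The 7 LFD Clec9a/Xcr1 cells were fewer than the 10 that naming a lower gene on HFD needs, and 27 cells in all leave intervals of several fold for genes near 50 UMIs. Shares of cells with a UMI depended on depth, and 30 of 64 such shares moved beyond their interval without thinning or at 2000 UMIs. Sparse genes such as Zbtb46 and Itgae cannot be compared at this depth.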
